A study of Mus musculus with 8 samples.

Results

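The respiratory chain and the ATP synthase are the protein machines of the inner mitochondrial membrane that turn the electrons of nutrients into ATP. The members described here are the 91 nuclear genes whose symbol begins with Nduf, Uqcr, Cox4, Cox5, Cox6, Cox7, Cox8 or Atp5, or is Sdha, Sdhb, Sdhc, Sdhd, Cyc1 or Cycs. They are 91 of the 19938 genes that the array measures through a row with a single gene symbol, and where a gene has several rows the brightest one, by its mean of 8 arrays, stands for it. No expression difference enters this rule, but the set was chosen with earlier results of these data known. By protein assignment they comprise 34 subunits of complex I, 7 complex I assembly factors that carry Nduf names, 4 subunits of complex II, 9 of complex III, cytochrome c, 11 common subunits of complex IV, 8 tissue or condition isoforms of complex IV and 17 subunits of complex V. Ndufa4, named for complex I, was counted with complex IV, where the protein is now placed, and its paralogue Ndufa4l2 with the complex IV isoforms. Cox7a2l, an assembly factor related to subunit 7a, was counted with the common subunits of complex IV.

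The study measured how peritoneal macrophages respond to histidine-rich glycoprotein (HRG), a plasma protein made by the liver that binds heparan sulphate, heme and many other ligands. Cells were washed from the peritoneal cavity of wild-type C57/BL6 mice, pooled from 10 animals, kept overnight in RPMI medium with 5% fetal calf serum and then cultured with or without recombinant HRG. There were 2 arrays in each of 4 groups: HRG at 1 µg/ml for 6 h, basal culture for 6 h, HRG at 1 µg/ml for 24 h, and basal culture for 24 h. All 4 groups carried the same genotype and medium, and neither the sex nor the age of the mice is given in the sources used here. Because the cells were pooled and nothing says that duplicates came from separate pools, p-values measure the spread between these arrays, which may be technical, and not the spread between animals. All values are log2 expression from single-colour whole-transcript arrays, so a difference of 1 is a doubling. Levels are not set against each other between genes, except where a gene or row is called dim.

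Median log2 expression over all rows was 7.23 and 7.27 on the HRG 6 h arrays, 7.18 and 7.29 on the basal 6 h arrays, 7.23 and 7.27 on the HRG 24 h arrays, and 7.29 and 7.22 on the basal 24 h arrays. The list of 11 macrophage markers averaged 11.5 to 11.9 on the 8 arrays. Markers of other cells were present too, with means of 8.13 to 9.23 for 8 B cell markers and 9.38 to 10.2 for 6 mast cell markers. In such bulk samples fewer cells of a type and less RNA per cell cannot be told apart.

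Complex I (NADH dehydrogenase) and complex II (succinate dehydrogenase) pass electrons to ubiquinone, complex III passes them to cytochrome c, and complex IV (cytochrome c oxidase) hands them to oxygen. The proton gradient built by complexes I, III and IV drives complex V, the ATP synthase. In macrophages the balance between this chain and glycolysis is known to shift with activation, and complex II and succinate are known to take part in inflammatory signalling. The mitochondrial genome encodes further subunits of complexes I, III, IV and V, which are not analysed here. Nuclear genes of the chain are known targets of the transcription factors NRF1 and GABP (an ETS-family factor), which bind close to the start sites of many of them.

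The promoters of 4 members are shown, chosen after their values were seen. Cox6a1, Atp5h and Sdhd are the members called higher at 24 h than at 6 h with HRG whose windows hold both an NRF1 and an ETS motif, and Uqcrh was the member called higher with HRG over both times. Each is a RefSeq window of 300 bases on the GRCm38.p6 build, read 5′ to 3′ on the gene's strand, with motif letters in capitals. The windows lie at chr5:115348909-115349208 for Cox6a1, chr11:115419870-115420169 for Atp5h, chr9:50603800-50604099 for Sdhd and chr4:116075021-116075320 for Uqcrh, all on the minus strand.
Cox6a1: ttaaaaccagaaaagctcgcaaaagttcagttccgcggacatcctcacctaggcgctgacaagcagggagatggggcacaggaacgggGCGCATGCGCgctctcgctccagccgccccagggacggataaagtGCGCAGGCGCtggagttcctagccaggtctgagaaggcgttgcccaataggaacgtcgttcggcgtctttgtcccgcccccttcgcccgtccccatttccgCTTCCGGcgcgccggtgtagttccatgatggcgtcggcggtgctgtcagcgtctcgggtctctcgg
Atp5h: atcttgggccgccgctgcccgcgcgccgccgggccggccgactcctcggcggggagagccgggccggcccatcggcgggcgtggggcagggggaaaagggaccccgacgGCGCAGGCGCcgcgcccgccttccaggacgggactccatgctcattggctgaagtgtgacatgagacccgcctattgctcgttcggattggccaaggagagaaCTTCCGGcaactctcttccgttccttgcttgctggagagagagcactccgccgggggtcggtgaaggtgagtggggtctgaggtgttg
Sdhd: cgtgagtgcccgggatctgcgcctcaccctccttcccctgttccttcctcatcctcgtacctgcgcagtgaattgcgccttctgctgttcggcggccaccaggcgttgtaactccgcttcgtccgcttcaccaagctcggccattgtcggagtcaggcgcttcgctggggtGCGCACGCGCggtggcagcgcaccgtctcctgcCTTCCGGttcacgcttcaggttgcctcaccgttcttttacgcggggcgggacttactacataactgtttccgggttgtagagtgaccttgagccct
Uqcrh: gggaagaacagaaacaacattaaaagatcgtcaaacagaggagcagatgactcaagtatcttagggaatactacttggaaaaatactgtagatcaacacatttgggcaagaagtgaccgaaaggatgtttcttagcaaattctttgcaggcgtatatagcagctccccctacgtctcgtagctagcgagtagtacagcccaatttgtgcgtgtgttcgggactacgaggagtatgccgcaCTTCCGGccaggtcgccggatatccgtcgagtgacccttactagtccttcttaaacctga

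The capitals mark the NRF1 consensus, which has a free letter in the middle, and the ETS letters CCGGAAG, which appear here on the other strand as CTTCCGG. Both were searched on both strands, and they do not overlap in these windows. The NRF1 letters found are GCGCATGCGC and GCGCAGGCGC in Cox6a1, GCGCAGGCGC in Atp5h and GCGCACGCGC in Sdhd. In Cox6a1 the NRF1 letters begin at positions -162 and -117 and the ETS letters at -16, counted from the annotated start of the gene. Atp5h holds them at -141 and -38, Sdhd at -79 and -46, and Uqcrh holds only the ETS letters, at -10. Of the 74 members with a promoter in the table, 18 (24.3%) held the NRF1 letters, against 7.9% of the 15563 genes of the array with a promoter there. The ETS letters were likewise in 18 of 74 (24.3%), against 13.6% of all genes. The YY1 consensus was in 5 of 74 (6.8%), against 1.5%, and the CRE motif TGACGTCA in 5 of 74 (6.8%), against 2.7%. TATAAA was in 8 of 74 (10.8%), against 13.6%. None of the 4 complex IV isoform promoters held the NRF1 or the ETS letters, and 2 held TATAAA. Median GC content was 58.4% over the members, against 57.5% over all genes. Such matches describe the letters of these windows and are not evidence that a factor was bound.

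Seen across the 4 groups, the common subunits of complexes I, II, IV and V stood highest on the HRG 24 h arrays, next on the basal 24 h arrays and lowest on all 4 of the 6 h arrays. The group mean was highest in HRG 24 h for 67 of 91 members (73.6%), against 23.5% of all genes. It was lowest in a 6 h group for most members, in basal 6 h for 42 and in HRG 6 h for 33. The most frequent orders of the 4 group means were HRG 24 h, basal 24 h, HRG 6 h, basal 6 h in 30 members and HRG 24 h, basal 24 h, basal 6 h, HRG 6 h in 24. A level of each complex was formed on each array as the mean, over its members, of the log2 expression minus the gene's own mean over the 8 arrays. For complex I this relative level was -0.06 and -0.13 on the HRG 6 h arrays and -0.09 and -0.12 on the basal 6 h arrays, so these groups overlapped. It was 0.12 and 0.21 on the HRG 24 h arrays, against 0.02 and 0.05 on the basal 24 h arrays, with no overlap.

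**Figure D1:**
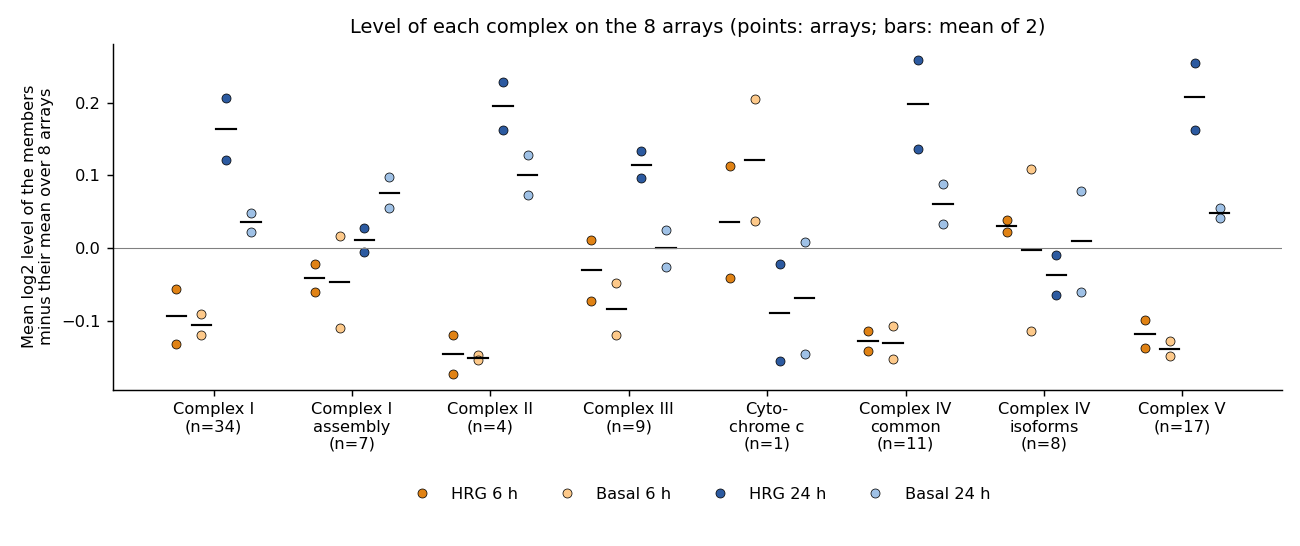
Relative level of each complex (mean over its members of log2 expression minus the gene's mean over 8 arrays, vertical axis) on each of the 8 arrays; points are arrays, bars the mean of 2, and n the number of genes. Complexes I, II, III, IV and V are highest on both HRG 24 h arrays (complex V at 0.16 and 0.25), while the complex I assembly factors, cytochrome c and the complex IV isoforms are not.

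Complex II stood at -0.12 and -0.17 on the HRG 6 h arrays and -0.15 and -0.15 on the basal 6 h arrays. At 24 h it stood at 0.16 and 0.23 with HRG, against 0.07 and 0.13 in basal culture. The order of the groups was thus the one seen for complex I.

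Complex III had the flattest course of the 5 complexes. Its relative level was 0.01 and -0.07 on the HRG 6 h arrays and -0.05 and -0.12 on the basal 6 h arrays, and 0.10 and 0.13 on the HRG 24 h arrays, against -0.03 and 0.03 on the basal 24 h arrays. The lower HRG 24 h array was above both basal 24 h arrays, and the basal 24 h and HRG 6 h arrays overlapped.

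The common subunits of complex IV had -0.11 and -0.14 on the HRG 6 h arrays, against -0.11 and -0.15 on the basal 6 h arrays, and 0.14 and 0.26 on the HRG 24 h arrays, against 0.09 and 0.03 on the basal 24 h arrays. Complex V had -0.10 and -0.14 on the HRG 6 h arrays, against -0.13 and -0.15 on the basal 6 h arrays, and 0.16 and 0.25 on the HRG 24 h arrays, against 0.05 and 0.04 on the basal 24 h arrays. In both complexes replicate 2 of HRG 24 h was the higher one, a difference within the group nearly as large as the gap to basal culture in complex IV. Averaged over all 91 members, the relative level was -0.08 ± 0.04 with HRG and -0.10 ± 0.01 in basal culture at 6 h, and 0.14 ± 0.06 with HRG and 0.04 ± 0.0005 in basal culture at 24 h (SD, n = 2 each).

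**Figure D2:**
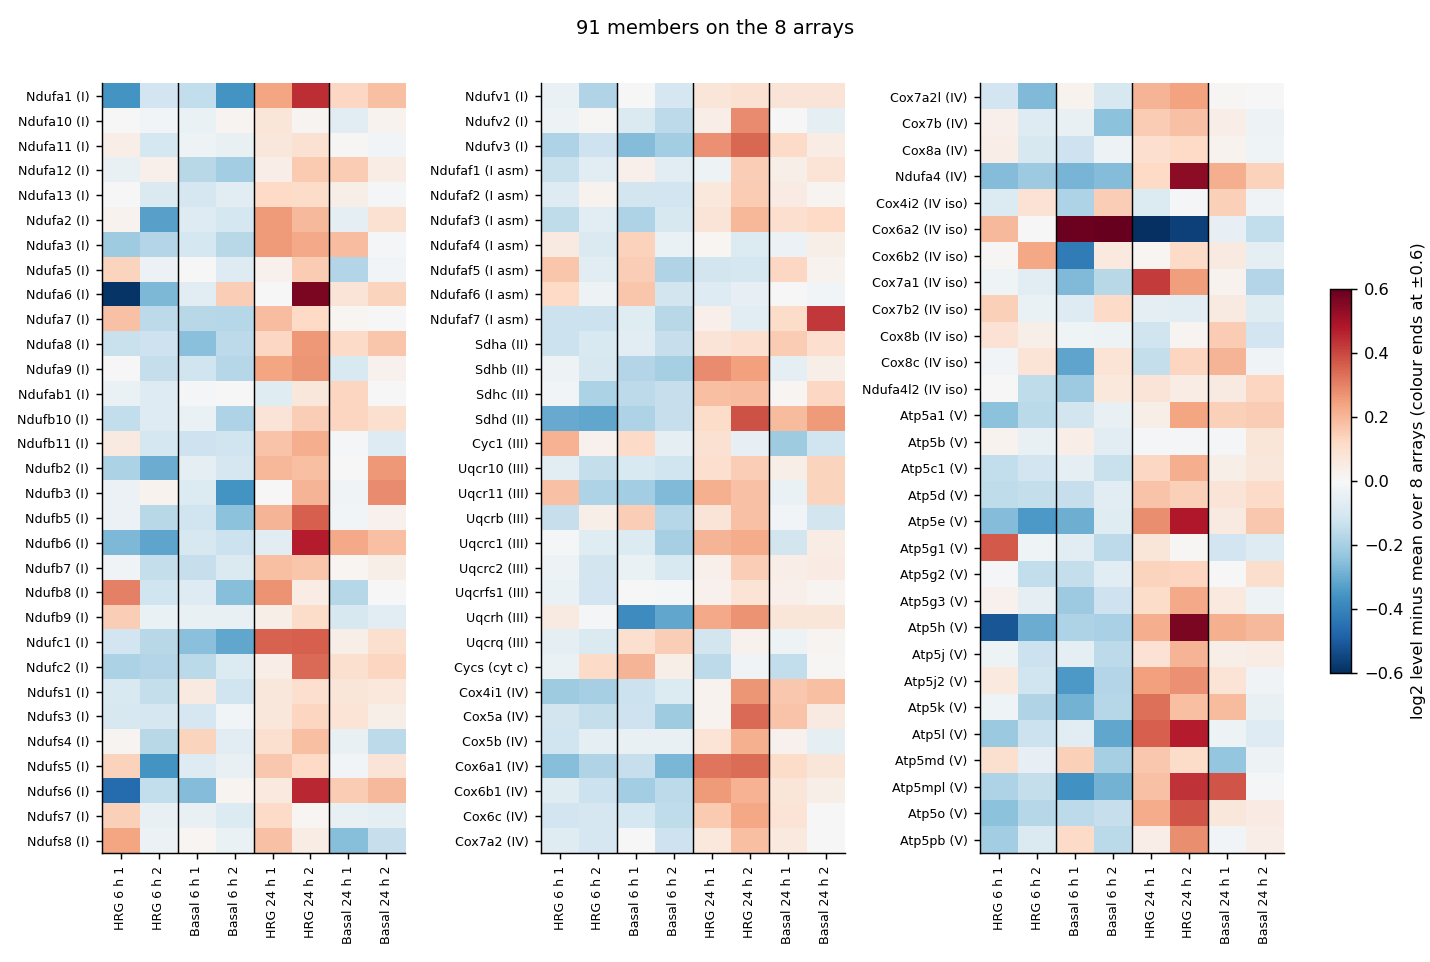
Log2 expression minus the gene's mean over 8 arrays for the 91 members (rows, with the complex in brackets; asm, assembly factor; iso, isoform; cyt c, cytochrome c) on the 8 arrays (columns); red is above and blue below the gene's mean, and colours saturate at ±0.6. Most rows turn from blue at 6 h to red at 24 h with HRG, and Cox6a2, at 8.40 and 8.47 in HRG 24 h and 9.62 and 9.63 in basal 6 h, runs the other way.

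After 6 h of HRG almost none of these genes was called different from basal culture. Of 91 members, none passed the test as higher and 1, Cox6a2, as lower (limma, Benjamini-Hochberg adjusted p below 0.05 over all 19938 genes). Over all genes 0.431% were called higher and 0.818% lower. At an unadjusted p under 0.05, 3 members were higher and 2 lower, a smaller share than the 11% of all genes under that p in either direction. The median log2 difference of the members was 0.02, as it was over all genes (0.02), and 53 of 91 were above 0. The share above 0 over all genes was 56.1%. In 22 members both HRG arrays lay above both basal arrays and in 18 both lay below. The background shares over all genes were 20% and 18.3%. The 95% confidence interval of a single member's difference reached a median of 0.22 to either side, without adjustment over the genes. The adjusted test was stricter, and Ndufa6 at -0.47 and Uqcrh at 0.37 did not pass it. Differences of such sizes could thus be missed with 2 arrays a group.

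Cox6a2 encodes the heart and skeletal muscle form of a small regulatory subunit of cytochrome c oxidase. Its log2 expression was 9.23 and 9.03 on the HRG 6 h arrays, against 9.62 and 9.63 on the basal 6 h arrays. At 24 h it was 8.40 and 8.47 with HRG, against 8.98 and 8.88 in basal culture. The groups did not overlap at either time, and the lowest values of all were those with HRG at 24 h.

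Cox6a2 fell by 0.50 on the log2 scale with HRG at 6 h (SE 0.10, adjusted p = 0.0366) and by 0.49 at 24 h (adjusted p = 0.0165). The mean effect over both times was -0.50 (adjusted p = 0.0023). The difference between the HRG effects at 24 h and 6 h was 0.00 (adjusted p = 0.997). The call at 6 h was lost when any of 6 arrays was left out, with adjusted p up to 0.39 over the alternatives, and the direction was kept throughout. The call at 24 h was lost without either HRG 24 h array or either basal 24 h array. In the RefSeq annotation Cox6a2 shares 70 bases on chromosome 7 with the end of Itgad, an integrin subunit gene, which was looked up after these values were seen. Itgad differed by -0.14 at 6 h (adjusted p = 0.735) and -0.05 at 24 h (adjusted p = 0.943).

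The ubiquitous form of the same subunit, Cox6a1, did not share this pattern. It had 10.50 and 10.57 on the HRG 6 h arrays, against 10.61 and 10.47 on the basal 6 h arrays, and 11.07 and 11.09 on the HRG 24 h arrays, against 10.86 and 10.82 on the basal 24 h arrays. The HRG arrays overlapped the basal ones at 6 h and lay above both of them at 24 h, where the difference of 0.24 did not pass the test (adjusted p = 0.287).

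**Figure D3:**
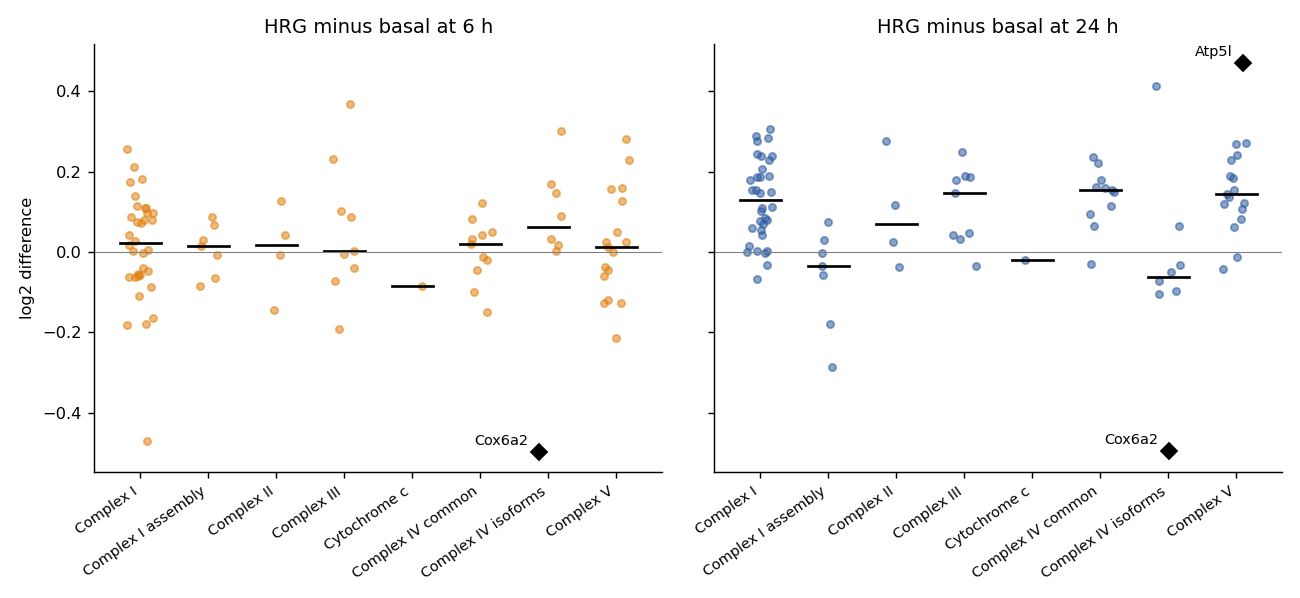
Log2 difference, HRG minus basal, of each member (points) by complex at 6 h (left) and 24 h (right); bars are medians and black diamonds are members with adjusted p below 0.05. The medians lie near 0 at 6 h, between 0.07 and 0.15 for complexes I to V at 24 h, and below 0 for the assembly factors and the complex IV isoforms at 24 h.

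The remaining extremes at 6 h did not pass. In complex I they were Ndufa6 at -0.47 (adjusted p = 0.278) and Ndufb8 at 0.26 (adjusted p = 0.569), both supernumerary subunits. Ndufa6 had 8.92 and 9.23 on the HRG 6 h arrays, against 9.44 and 9.65 on the basal 6 h arrays, without overlap. In complex III, Uqcrh, the acidic hinge protein that helps cytochrome c dock, had 10.40 and 10.34 on the HRG 6 h arrays, against 9.97 and 10.04 on the basal 6 h arrays. Its difference of 0.37 came nearest to passing among the higher members (adjusted p = 0.0875). Uqcrq stood at the other end of complex III with -0.19.

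In complex II the 6 h differences ran from -0.14 for Sdhd to 0.13 for Sdhb, the membrane anchor and the iron-sulphur subunit. Among the common subunits of complex IV they ran from -0.15 for Cox7a2l, an assembly factor counted with them, to 0.12 for Cox7b. Among the assembly factors they ran from -0.08 for Ndufaf1 to 0.09 for Ndufaf2. Among the complex IV isoforms the largest positive difference was 0.30 for Cox6b2, whose arrays overlapped the basal ones.

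No subunit of complex V passed at 6 h, and the differences between its structural classes were not tested. All 5 members of the catalytic head (Atp5a1, Atp5b, Atp5c1, Atp5d and Atp5e) were at or below 0, with a median of -0.04, and 1 of them was above 0 after renewed quantile normalization. All 8 members of the membrane part, which carries the proton-driven ring, were above 0, with a median of 0.14, and 7 of 8 after centring the arrays. Of the 4 members of the peripheral stalk 1 was above 0, with a median of -0.09. The ring subunit gene Atp5g1 was highest at 0.28 and Atp5h, of the peripheral stalk, lowest at -0.21. Atp5g1 had 11.77 and 11.38 on the HRG arrays, against 11.34 and 11.25 on the basal arrays, so 1 HRG array held most of that difference. Beside these values, all 8 B cell markers were lower with HRG at 6 h (means of 8.86 and 8.86, against 9.23 and 9.20), with Cd79b past the test. The T cell marker Cd3g and the dendritic cell marker Ccr7 also fell, and the macrophage marker Mertk rose. Above 0 were 2 of 8 T and NK cell markers (median -0.42) and 2 of 6 dendritic cell markers (median -0.03). Of the 11 macrophage markers 8 were above 0, with a median of only 0.03, so Mertk did not stand for its list. Their part in the members' values was not tested.

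After 24 h of HRG a small upward shift ran through the common subunits, of which single genes rarely passed. The median difference of the 91 members was 0.11, against -0.02 over all genes, and 70 of 91 were above 0, beside 43.7% of all genes. Only Atp5l was called higher and only Cox6a2 lower, against a background of 2.43% called higher and 1.05% called lower over all genes. At an unadjusted p under 0.05, 16 members were higher and 2 lower, beside 12.7% of all genes under that p in either direction. Both HRG arrays lay above both basal arrays in 49 of 91 members (53.8%) and below in 6. The background shares were 19.1% and 21.1%.

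Atp5l encodes subunit g of the ATP synthase membrane part, which takes part in joining ATP synthases into dimers. It had 9.84 and 9.96 on the HRG 24 h arrays, against 9.45 and 9.40 on the basal 24 h arrays, and 9.26 and 9.36 on the HRG 6 h arrays, against 9.42 and 9.17 on the basal 6 h arrays. The HRG 24 h arrays stood above the other 6. The difference at 24 h was 0.47 (SE 0.11, adjusted p = 0.0321). It lost the call under 8 of 16 alternative settings, with adjusted p from 0.0105 to 0.22. The gene has 6 rows on the array, whose differences at 24 h ran from 0.41 to 0.47. Whether these rows are independent measures of the gene was not tested.

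By complex, 30 of 34 complex I subunits were above 0 at 24 h (median 0.13), 3 of 4 in complex II (0.07), 8 of 9 in complex III (0.15), 10 of 11 common subunits in complex IV (0.15) and 15 of 17 in complex V (0.15). After renewed quantile normalization complex II stood at 2 of 4 (0.02), and the other 4 complexes kept medians of 0.10 to 0.12. No test of a difference between the complexes was made. Cytochrome c (Cycs), the soluble carrier, was at -0.02, with 12.53 and 12.66 on the HRG 24 h arrays, against 12.54 and 12.69 on the basal 24 h arrays.

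The medians of the assembly factors and the isoforms lay below 0. Of the 7 assembly factors 2 were above 0, with a median of -0.03. The lowest was Ndufaf7, a methyltransferase that acts during complex I assembly, at -0.29 (adjusted p = 0.275), with 7.43 and 7.34 on the HRG 24 h arrays, against 7.52 and 7.83 on the basal 24 h arrays. The highest was Ndufaf2 at 0.07.

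Of the 8 complex IV isoforms 2 were above 0 (median -0.06), namely Cox7a1 and Cox6b2. Cox7a1 is the heart and muscle form of subunit 7a. It had 7.62 and 7.46 on the HRG 24 h arrays, against 7.23 and 7.03 on the basal 24 h arrays, a difference of 0.41 that narrowly missed the threshold (adjusted p = 0.0571). Its ubiquitous counterpart Cox7a2 was at 0.09. The 2 muscle forms Cox6a2 and Cox7a1 therefore stood at opposite ends of the isoforms. The other isoforms stayed within 0.11 of 0: Cox4i2, an oxygen-regulated form, was at -0.11, Ndufa4l2, a known hypoxia-induced gene, at -0.03 and Cox8b, another muscle form, at -0.07.

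The largest 24 h differences in the remaining complexes did not pass either. Ndufs8, a core iron-sulphur subunit of complex I, had 10.33 and 10.20 on the HRG 24 h arrays, against 9.91 and 10.02 on the basal 24 h arrays (0.31, adjusted p = 0.228). Sdhb had 10.48 and 10.45 with HRG, against 10.14 and 10.23 in basal culture (0.28, adjusted p = 0.173). Uqcrc1, a core protein of complex III, had 10.81 and 10.83 with HRG, against 10.50 and 10.65 in basal culture (0.25, adjusted p = 0.278). In these 3 genes the HRG arrays lay above the basal ones. At the other end stood Ndufab1 (-0.07), Sdha (-0.04), Uqcrq (-0.03), Cox4i1 (-0.03) and Atp5b (-0.04).

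The catalytic and electron-carrying subunits named here ran from -0.04 for Sdha and Atp5b to 0.31 for Ndufs8 at 24 h, and were not tested as a class. Sdha, the flavoprotein of succinate dehydrogenase, had 11.35 and 11.37 on the HRG 24 h arrays, against 11.42 and 11.37 on the basal 24 h arrays. Ndufv1 and Ndufs1, core complex I subunits that take electrons from NADH, were at 0.00 and 0.02. Atp5a1 and Atp5b, the alpha and beta subunits that form the catalytic sites of ATP synthase, were at -0.01 and -0.04. Uqcrfs1, the Rieske iron-sulphur protein, was at 0.03, Cyc1, cytochrome c1, at 0.19, Cox5a at 0.07 and Cox8a at 0.12. Sdhc was at 0.12, Sdhd at 0.02, Atp5g2 at 0.08 and Atp5g3 at 0.15.

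Markers of other cells moved at the same time. All 8 B cell markers were higher with HRG at 24 h, 5 of them past the test, and their mean level was 9.10 and 8.79 on the HRG 24 h arrays, against 8.51 and 8.13 on the basal 24 h arrays. All 6 mast cell markers were higher, 2 past the test, with means of 10.2 and 9.87, against 9.38 and 9.68. Of the 11 macrophage markers 9 were above 0, and Fcgr1, Timd4 and Mertk passed, with means of 11.9 and 11.9, against 11.6 and 11.5. The mesothelial cell and fibroblast markers were above 0 in 6 of 8 (median 0.12), and none of them passed (limma, 2 higher and 0 lower at an unadjusted p under 0.05). Of the 8 T and NK cell markers 6 were above 0 and none passed (limma, 2 higher and 0 lower at an unadjusted p under 0.05), with means of 7.03 and 6.98, against 6.98 and 6.64. The part of these cells in the members' shift was not tested.

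The HRG effect of no member differed between 24 h and 6 h after adjustment. The interaction called 0 of 91 members, against a background of 1.02% called higher and 0.451% called lower, and at an unadjusted p under 0.05 it had 7 higher and 0 lower, a smaller share than the 11% of all genes in either direction. The median of the members was 0.08, against -0.03 over all genes, with 68 of 91 above 0, beside 43.2% of all genes. The largest was Ndufa6 at 0.65 (adjusted p = 0.283), followed in complex V by Atp5l at 0.46 (adjusted p = 0.226). Averaged over both times, the members had a median HRG effect of 0.06, against -0.0002 over all genes. Uqcrh was then called higher at 0.27 (SE 0.06, adjusted p = 0.0395) and Cox6a2 lower, against 1.9% and 1.23% of all genes. The Uqcrh call was lost under 11 of 15 alternatives, with adjusted p from 0.0086 to 0.17. The 2 HRG effects rest on different arrays, and across the 91 genes they correlated with r = 0.33, against r = 0.106 over all genes, given as a description because genes of one array are not independent.

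**Figure D4:**
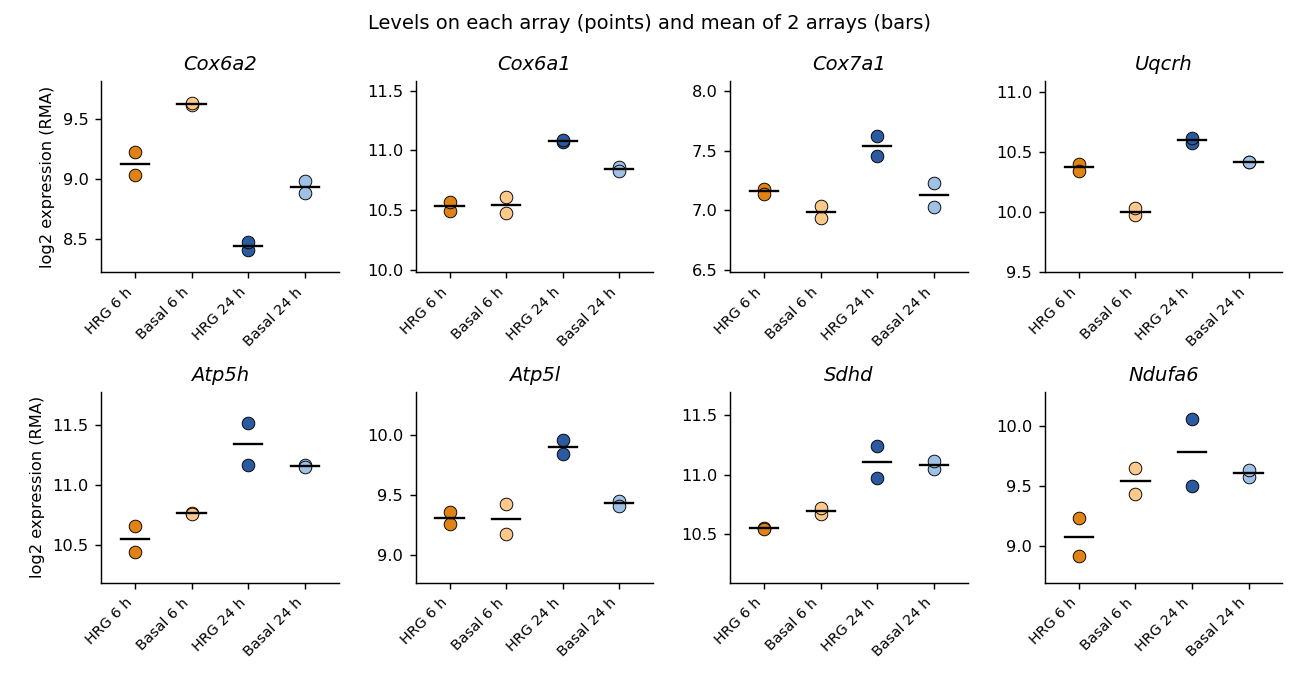
Log2 expression of 8 members on each array (points) with the mean of 2 arrays (bars), with the same span of the axis in each panel. Cox6a2 is lower with HRG at both times and lower at 24 h than at 6 h, with 8.40 and 8.47 at HRG 24 h, whereas Atp5h, at 11.17 and 11.52, and Cox6a1, at 11.07 and 11.09, are highest at HRG 24 h.

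More members were called between 24 h and 6 h than between HRG and basal culture. In HRG culture 18 of 91 members were called higher at 24 h than at 6 h and 1 lower, against a background of 4.41% and 2.87%. In basal culture 6 were called higher and 1 lower, against 3.8% and 5.48%. The medians of the members were 0.21 with HRG and 0.15 in basal culture, against -0.02 and 0.03 over all genes, and 79 and 77 of 91 members were above 0. The shares above 0 over all genes were 44.5% and 56.9%. Both 24 h arrays lay above both 6 h arrays in 68 members with HRG and 59 in basal culture. Both lay below in 5 and 6. The background shares were 22.6% and 23.5% above, and 26.6% and 21.7% below. Since the interaction called no member, the counts of 18 and 6 do not show that time acted differently in the 2 arms.

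The 12 members with the smallest p among those higher with time in HRG culture were Atp5h, Atp5e, Cox6a1, Atp5l, Ndufc1, Atp5o, Sdhd, Ndufv3, Ndufa1, Ndufa4, Ndufa3 and Ndufa6, with differences from 0.44 to 0.80. Atp5h, subunit d of the peripheral stalk, had 11.17 and 11.52 on the HRG 24 h arrays, against 10.44 and 10.65 on the HRG 6 h arrays. It rose by 0.80 on the log2 scale (SE 0.12, adjusted p = 0.0018), the largest difference of any member, and its 3 rows ran from 0.80 to 0.81. Atp5h and Atp5e kept the call under all 16 alternatives, which none of the other 16 genes did. Without HRG 6 h replicate 1 or HRG 24 h replicate 2 the count of called members was 4, and without HRG 6 h replicate 2 it was 8. In basal culture it had 11.16 and 11.15 at 24 h, against 10.77 and 10.76 at 6 h (0.39, adjusted p = 0.0686).

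Atp5e, the epsilon subunit of the central stalk, had 8.79 and 8.99 on the HRG 24 h arrays, against 8.25 and 8.17 on the HRG 6 h arrays (0.68, adjusted p = 0.003). Cox6a1 had 11.07 and 11.09, against 10.50 and 10.57 (0.55, adjusted p = 0.0041). Atp5o, the stalk subunit OSCP that oligomycin sensitivity depends on, had 10.14 and 10.30, against 9.68 and 9.75 (0.51, adjusted p = 0.0066). In all 3 the HRG 24 h arrays were the highest of the 8.

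Ndufa6 had 9.50 and 10.07 on the HRG 24 h arrays, against 8.92 and 9.23 on the HRG 6 h arrays (0.71, adjusted p = 0.0221). Its basal arrays held 9.58 and 9.63 at 24 h and 9.44 and 9.65 at 6 h, which overlapped. The low HRG 6 h arrays therefore made up much of this difference, and the call was lost without HRG 6 h replicate 1 and without HRG 24 h replicate 2 (adjusted p up to 0.20 over the alternatives).

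The other 6 called members were Cox7a2l, Cox6b1, Cox7a1, Ndufb2, Ndufb5 and Ndufs6, with differences from 0.33 to 0.56. By complex the calls were 8 of 34 in complex I, 1 of 4 in complex II, 0 of 9 in complex III (3 at an unadjusted p under 0.05, beside 18.9% of all genes), 4 of 11 among the common subunits of complex IV, 1 of 8 among its isoforms and 4 of 17 in complex V. Within complex I all 8 were supernumerary subunits, of 28, and none of the 6 core subunits was called (limma, 0 at an unadjusted p under 0.05). The core subunits were above 0 in 6 of 6, with a median of 0.18, against 0.25 over the supernumerary ones. The difference between the classes was not tested.

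**Figure D5:**
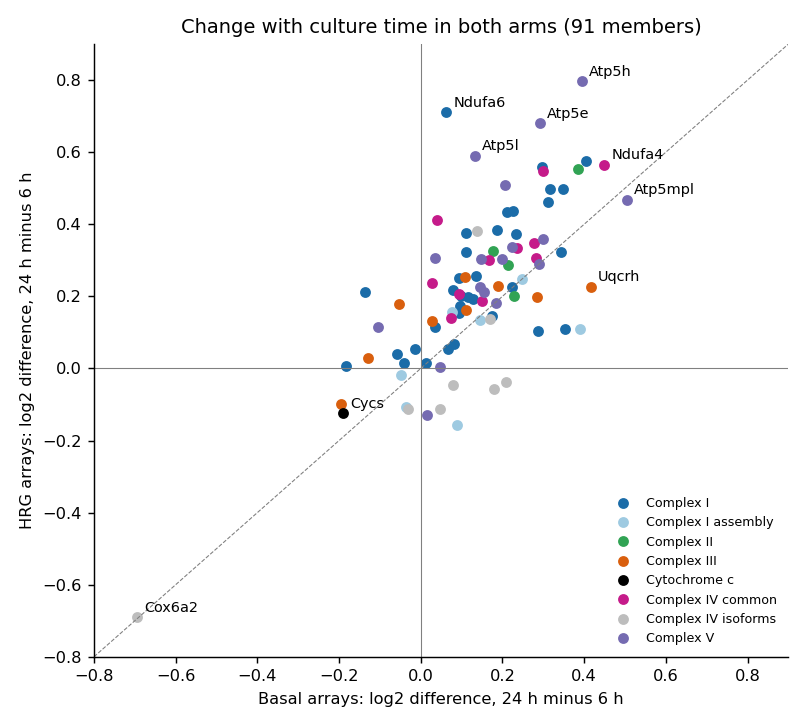
Log2 difference between 24 h and 6 h of the 91 members in HRG culture (vertical axis) against that in basal culture (horizontal axis), coloured by complex; the dashed line marks equal differences. Points lie mostly in the upper right (71 members above 0 in both arms) and above the line, with Cox6a2 farthest to the lower left (-0.69 in both arms).

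In basal culture the members called higher at 24 h were Uqcrh, Ndufc1, Atp5mpl, Sdhd, Ndufa8 and Ndufa4. Uqcrh had 10.42 and 10.42 on the basal 24 h arrays, against 9.97 and 10.04 on the basal 6 h arrays (0.42, adjusted p = 0.0119). Atp5mpl, a small membrane subunit of ATP synthase, had 10.13 and 9.75, against 9.39 and 9.48 (0.50, adjusted p = 0.0319). Ndufa8, a supernumerary complex I subunit, had 10.70 and 10.75, against 10.34 and 10.43 (0.34, adjusted p = 0.0429). The 24 h arrays lay above the 6 h arrays in all 3, and those of Atp5mpl stood farthest apart from each other. None of the 6 calls held under all 16 alternatives, and 1 to 5 members were called when an array was left out.

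Called higher with time in both arms were Ndufa4, Ndufc1 and Sdhd. Ndufa4, a subunit of cytochrome c oxidase, had 9.74 and 10.16 on the HRG 24 h arrays, against 9.36 and 9.41 on the HRG 6 h arrays (0.56, adjusted p = 0.0166). In basal culture it had 9.84 and 9.76 at 24 h, against 9.34 and 9.36 at 6 h (0.45, adjusted p = 0.0431). The 24 h and 6 h arrays did not overlap in either arm.

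Sdhd had 10.97 and 11.24 on the HRG 24 h arrays, against 10.56 and 10.55 on the HRG 6 h arrays (0.55, adjusted p = 0.0074). In basal culture it had 11.05 and 11.11 at 24 h, against 10.67 and 10.72 at 6 h (0.38, adjusted p = 0.0402). The other complex II subunits were above 0 in both arms without passing. With HRG, Sdha was at 0.20, Sdhb at 0.33 (adjusted p = 0.0534) and Sdhc at 0.29. In basal culture Sdha was at 0.23, Sdhb at 0.18 and Sdhc at 0.21.

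Ndufc1, a small supernumerary complex I subunit, had 10.14 and 10.15 on the HRG 24 h arrays, against 9.67 and 9.62 on the HRG 6 h arrays (0.50, adjusted p = 0.0056). In basal culture it had 9.83 and 9.89 at 24 h, against 9.54 and 9.48 at 6 h (0.35, adjusted p = 0.0315). Its 4 groups did not overlap.

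Cox6a2 was the only member called lower with time, at -0.69 in HRG culture (adjusted p = 0.0013) and -0.69 in basal culture (adjusted p = 0.001), and both calls held under all 16 alternatives. Among the members, Cox6a2 thus had its lowest level in the group in which most of the others were highest. Cycs and Cyc1 were also below 0 in both arms without passing. Cycs had -0.12 with HRG and -0.19 in basal culture, and Cyc1 had -0.10 and -0.20. A second, dim row of Cycs gave 0.22 with HRG, so its rows disagreed in sign. Atp5g1 was below 0 with HRG (-0.13) and at 0.01 in basal culture. The 2 time differences rest on different arrays, with both above 0 in 71 members, both below 0 in 6 and opposite in 14. Their correlation across the 91 genes was r = 0.706, against 0.513 over all genes, given as a description.

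Cell markers moved in both directions over time. In basal culture all 8 B cell markers were lower at 24 h and all 8 passed, with means of 8.51 and 8.13 at 24 h, against 9.23 and 9.20 at 6 h. All 6 mast cell markers were lower too, 2 past the test. In basal culture the mesothelial cell and fibroblast markers were above 0 in 6 of 8 (median 0.12), the neutrophil markers in 5 of 7 (median 0.06) and the eosinophil markers in 3 of 3 (median 0.15), of which Ccr3 passed. The dendritic cell marker Clec9a rose by 1.35 there (adjusted p = 8.13e-05), while Ccr7 and Flt3 fell, and 3 of 6 in that list were above 0 (median 0.0006). The T and NK cell markers were above 0 in 3 of 8 in basal culture (median -0.09), and Cd2 was called lower at -1.06 (adjusted p = 0.0024). In HRG culture the B cell means were 9.10 and 8.79 at 24 h, against 8.86 and 8.86 at 6 h, and overlapped. Of the T and NK cell markers 6 of 8 were above 0 there and Cd3g and Cd3e passed, with means of 7.03 and 6.98, against 6.56 and 6.66. The mast cell markers Cpa3 and Fcer1a, the neutrophil marker Csf3r and Clec9a also rose with time in HRG culture, and Ccr7 fell. Their lists were mixed. Above 0 there were 3 of 6 mast cell markers (median 0.03) and 2 of 7 neutrophil markers (median -0.01). Of the dendritic cell markers 3 of 6 were above 0 (median 0.06). The mesothelial cell and fibroblast markers were above 0 in 7 of 8 (median 0.17) and none passed (limma, 3 higher and 1 lower at an unadjusted p under 0.05). Among the macrophage markers 2 rose and 3 fell in basal culture (11.6 and 11.5 at 24 h, against 11.6 and 11.5 at 6 h), and 3 rose with HRG (11.9 and 11.9, against 11.6 and 11.7). Their part in the members' differences was not tested.

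Among the genes around the chain were the enzymes of the tricarboxylic acid cycle, which feed it with NADH and succinate. None of the 16 measured passed in any comparison, with medians of -0.02 and -0.01 for HRG at 6 h and 24 h and of 0.12 and 0.03 for time with HRG and in basal culture. At an unadjusted p under 0.05, 1 was higher with HRG at 24 h, 4 were higher and 1 lower with time in HRG culture, and 2 were higher and 1 lower in basal culture. The shares of all genes under that p were 12.7%, 18.9% and 20.4% in either direction. With HRG both 24 h arrays lay above both 6 h arrays in 9 of 16 and below in 5. In basal culture these counts were 5 and 2. The background shares were 22.6% and 26.6% with HRG, and 23.5% and 21.7% in basal culture. Glycolysis moved further with time: 11 of 16 genes passed as higher with HRG (median 0.43) and 14 of 16 in basal culture (median 0.57). Over all genes 4.41% and 3.8% were called higher. Pdk1, the kinase that holds back pyruvate dehydrogenase, rose most, by 1.47 with HRG (adjusted p = 7.59e-06) and 1.55 in basal culture (adjusted p = 3.05e-06), and Pfkl, Slc16a3 and Tpi1 followed. With HRG against basal culture none of the 16 glycolysis genes passed at either time, and at an unadjusted p under 0.05 6 were higher and 0 lower at 6 h and 3 higher and 1 lower at 24 h. The shares of all genes under that p were 11% at 6 h and 12.7% at 24 h in either direction. Over both times Pdk1 was called higher with HRG (0.35, adjusted p = 0.0138).

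Of 16 carriers and inhibitors none passed with HRG against basal culture (limma, 1 higher and 0 lower at an unadjusted p under 0.05 at 6 h, 2 higher and 1 lower at 24 h), and 3 rose with time in HRG culture and 4 in basal culture. The shares of all genes under that p were 11% and 12.7% in either direction. Over all genes 4.41% with HRG and 3.8% in basal culture were called higher with time. Slc25a4, the ADP/ATP carrier that exports ATP from the matrix, rose by 0.60 with HRG (adjusted p = 0.0065) and 0.55 in basal culture (adjusted p = 0.0083). Higd1a, a hypoxia-responsive protein of complex IV that also stands among the assembly factors, rose by 0.63 and 0.46 (adjusted p = 0.0034 and 0.0151). Atpif1, the inhibitor that blocks ATP hydrolysis by the synthase, rose by 0.48 in basal culture (adjusted p = 0.0094). With HRG Atpif1 had 12.19 and 12.22 at 24 h, against 11.90 and 11.91 at 6 h, without passing.

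Of 38 assembly factors outside the Nduf names none passed with HRG against basal culture (limma, 0 higher and 2 lower at an unadjusted p under 0.05 at 6 h, 2 higher and 1 lower at 24 h). The shares of all genes under that p were 11% and 12.7% in either direction. Sdhaf4, an assembly factor of complex II, rose with time by 0.67 with HRG (adjusted p = 0.0044) and 0.62 in basal culture (adjusted p = 0.0052). Sdhaf1, which serves the iron-sulphur subunit of the same complex, fell by 0.56 in basal culture (adjusted p = 0.0054). With HRG Sdhaf1 had 8.65 and 8.51 at 24 h, against 8.87 and 8.66 at 6 h, without passing. Cox18, which inserts a mitochondrially encoded subunit of complex IV, fell by 0.41 with HRG (adjusted p = 0.0253). In basal culture Cox18 had 10.46 and 10.39 at 24 h, against 10.74 and 10.71 at 6 h, without passing.

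Among 19 genes of coenzyme Q synthesis and other ubiquinone reductases, Sqor was called lower with HRG, at -0.51 at 24 h (adjusted p = 0.0151) and at -0.39 over both times (adjusted p = 0.0111). Sqor oxidises hydrogen sulphide and delivers the electrons to ubiquinone. It rose with time in basal culture by 0.41 (adjusted p = 0.0244). With HRG it had 11.42 and 11.55 at 24 h, against 11.36 and 11.275 at 6 h, without passing. Etfb, part of the flavoprotein that carries electrons from fatty acid oxidation, rose by 0.53 with time in HRG culture (adjusted p = 0.0096). In basal culture Etfb had 10.18 and 10.45 at 24 h, against 10.05 and 10.04 at 6 h, without passing.

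Of 20 regulators of respiratory chain genes and mitochondrial DNA none passed with HRG against basal culture (limma, 0 higher and 1 lower at an unadjusted p under 0.05 at 6 h, 2 higher and 2 lower at 24 h). The shares of all genes under that p were 11% and 12.7% in either direction. Gabpb1, a GABP subunit, fell by 0.47 with time in basal culture (adjusted p = 0.0122) and Myc by 0.67 (adjusted p = 0.0141). No other regulator passed there, Gabpa included. With HRG, Myc fell by 0.46 over time without passing. Gabpb1 had 8.84 and 8.78 on the HRG 24 h arrays, against 9.08 and 8.94 on the HRG 6 h arrays, without passing. The part of the regulators in the members' values was not tested. Hif1a, the oxygen-regulated factor, rose by 0.38 with time in HRG culture (adjusted p = 0.0462) and by 0.27 in basal culture without passing. Of 6 enzymes of itaconate, nitric oxide and peroxide handling, Nos2, the inducible nitric oxide synthase, was the 1 that passed, rising by 0.67 with HRG and 0.77 in basal culture over time (adjusted p = 0.0023 and 7.37e-04).

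Set beside 2 other large families of nuclear genes, the members had time medians nearer to those of the cytosolic ribosomal proteins than to those of the mitochondrial ones. The 77 mitochondrial ribosomal protein genes (Mrpl and Mrps) had time medians of -0.0001 with HRG and -0.04 in basal culture. Of them 4 and 1 were called higher and 1 and 0 lower. The 61 cytosolic ribosomal protein genes (Rpl and Rps) had 0.21 and 0.10, with 10 and 0 called higher and 0 and 1 lower. Over all genes 4.41% with HRG and 3.8% in basal culture were called higher with time, and 2.87% and 5.48% lower. For HRG against basal culture at 24 h the medians were 0.04 and 0.03 in these families, against 0.11 over the members, with 0 called in each, and the cytosolic median was -0.01 after renewed quantile normalization. Over all genes 2.43% were called higher and 1.05% lower in this comparison. At an unadjusted p under 0.05 it had 5 higher and 1 lower in the mitochondrial family and 1 higher and 0 lower in the cytosolic one. The share of all genes under that p was 12.7% in either direction. For the interaction the medians were 0.05 in the mitochondrial family and 0.10 in the cytosolic one, against 0.08 over the members. Above 0 were 47 of 77, 56 of 61 and 68 of 91, so this lean was not particular to the members. No test of these differences between families was made.

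Of the 18 members called higher with time in HRG culture, all 18 had a promoter in the table, and 9 held the NRF1 or the ETS letters. Of the 56 other members with a promoter 23 did. Cox6a1, Atp5h and Sdhd, shown above, hold both motifs, and Uqcrh, called in basal culture, holds the ETS letters.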

How the data were processed

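Total RNA (250 ng a sample) was amplified, labelled with biotin and hybridised to Affymetrix whole-transcript mouse gene arrays. The deposited table holds log2 expression, made with Affymetrix Expression Console and RMA, and limma was used, per the submitters' processing notes. No version and no genome build is given in the sources used here. RMA sets the probes of all arrays to 1 distribution, so a shift common to all genes cannot be seen. Arrays have no read depth, and their number limits the precision.

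Of 28853 rows, 21789 have 1 symbol in the platform annotation, 1621 several and 5443 none. The 91 members come from 118 rows, 18 of them from several, and all matched RefSeq by gene ID. A further 6 rows that name a member beside another gene were left out. All 8 arrays were fitted together with limma 3.58.1 in R 4.3.3 (lmFit, contrasts.fit, eBayes), with a coefficient per group, 4 residual and 7.81 prior degrees of freedom, two-sided tests and Benjamini-Hochberg adjustment over 19938 genes. The code was tested on simulated data.

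The members, gene lists and markers were chosen with earlier results of these data known. Named are a fixed set of catalytic, isoform and electron-entry subunits, in each comparison up to 12 called members with the smallest p, the extremes of each complex with HRG, and up to 4 called genes of each list. Other called members are named in passing. Alternatives were a replicate block, a trended robust variance prior, quantile normalization applied again, centring on array medians, leaving out the dimmest 30% of genes, averaging rows, testing all rows, using the compared arrays alone, and omitting each array in turn.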

Additional observations from a re-analysis of the deposited data

How the results depend on the processing

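Under 16 alternatives (15 for the mean HRG effect and for the interaction, which use all arrays, so that fitting only the arrays compared changes nothing) no called member reversed. The medians of the members moved by more than the spread between replicates for the interaction, at 0.0271 under renewed quantile normalization, against 0.08. Leaving out arrays, the medians ran from -0.0076 to 0.047 for HRG at 6 h, 0.0723 to 0.1281 for HRG at 24 h, 0.0537 to 0.1248 for the interaction, 0.0395 to 0.0844 for the mean HRG effect, 0.1389 to 0.162 for time in basal culture and 0.1855 to 0.2632 for time with HRG. Counts moved further. Members called higher with time were 18 with HRG and 6 in basal culture; they became 31 and 13 with trend and robust, 29 and 11 without the dimmest 30% of genes, and, for basal culture alone, 11 after renewed quantile normalization, 3 after centring, 2 with all rows and 2 with only the arrays compared. Leaving out arrays gave 4 to 20 with HRG (4 without HRG 6 h replicate 1 or HRG 24 h replicate 2, 8 without HRG 6 h replicate 2) and 1 to 5 in basal culture. Members higher with HRG were 1 at 6 h with trend and robust and 1 after renewed quantile normalization; at 24 h they were 2 after renewed quantile normalization and 2 without dim genes, 0 with rows averaged and 0 with all rows, and 0 to 2 leaving out arrays. Over both times they were 2 with trend and robust, 2 after renewed quantile normalization, 2 without dim genes, 0 after centring, 0 with all rows and 0 to 1 leaving out arrays. The 1 member lower with HRG at 6 h, Cox6a2, became 0 with all rows and 0 with only the arrays compared, and 0 to 1 leaving out arrays, as at 24 h. The cause was not tested, except that leaving out an array leaves fewer samples and testing all rows adjusts over more tests. Deviations from the group means of same-numbered arrays correlated at 0.244 to 0.411 among basal 6 h, HRG 6 h and HRG 24 h and at -0.331 to -0.201 between basal 24 h and these. The labels tie no number to a shared culture, and not every correlation was above 0.1, so the numbers were not treated as pairs. A block with the basal 24 h numbers exchanged was not fitted, so a batch shared under other numbers was not tested. With the replicate number as a block the members called higher with the mean HRG effect became 0, and with time they were 15 with HRG and 6 in basal culture. Arrays give only 2 values a group, which limits every call. After renewed quantile normalization and after centring, 65 and 73 of 91 members were above 0 for HRG at 24 h, against 70.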
